A study of Malus hupehensis with 3 samples.

Results

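The miR393 family of *Malus hupehensis*, an apple species used as a rootstock, was described together with the gene models paired with it in the degradome. The family was made up of all names beginning with mdm-miR393, which were 6 of 207 known names and 2 of 85 distinct known sequences. Its targets were all gene models paired with such a name, 5 of the 129 gene models that had a site of any known miRNA. In 6-year-old trees, adult phase (A) leaves came from the tops and juvenile phase (J) leaves from the base of 18 trees, and the RNA of each phase was pooled. There was 1 small RNA library of each phase and 1 degradome library, which was made from J leaves, so A and J here differ in position in the crown as well as in phase. With 1 library of each phase, no difference below has a replicate check. The comparisons are between these 2 libraries of pooled RNA, and no p-value is given.

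In plants, miR393 is known to guide the cleavage of messenger RNAs of the TIR1/AFB family. These F-box proteins are auxin receptors. When auxin is bound, they hand Aux/IAA repressor proteins to a ubiquitin ligase for degradation, and this frees the auxin response factors (ARFs) that the repressors hold. Other conserved miRNAs act on the same pathway further down, since miR160 and miR167 target ARF messenger RNAs. A miRNA guides cleavage of its target between the bases opposite its bases 10 and 11, and a degradome library captures the 5′ ends that such cleavage leaves.

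The 2 sequences of the family are shown because every read count given for the family is listed under one of them. Every site of the family was paired with the first. Capitals mark the seed, bases 2 to 8.
mdm-miR393a-c: uCCAAAGGgaucgcauugaucu
mdm-miR393d-f: aUCAUGCGaucccuucggacg
The first, of 22 nt, is shared by mdm-miR393a, mdm-miR393b and mdm-miR393c. The second, of 21 nt, is shared by mdm-miR393d, mdm-miR393e and mdm-miR393f. Their seeds differ, and neither seed was found in any of the other known sequences or in any of the 172 predicted miRNAs. The predicted miRNA nearest to mdm-miR393a-c was 9 edits away and the one nearest to mdm-miR393d-f was 10 edits away, so no predicted miRNA was a close variant of the family. Among the 85 known sequences, 14 were 22 nt long and 64 were 21 nt long.

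The 5 gene models carried 3 different sequences around the site. They are shown because the annotation and the pairing score follow them, which the count does not. Each stretch is 31 bases of the gene model with the site at base 15, and capitals mark the bases paired with bases 1 to 18 of mdm-miR393a-c.
TIR1-type, MDP0000125975 and MDP0000498419: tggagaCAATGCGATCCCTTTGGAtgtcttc
AFB2-type, MDP0000203334 and MDP0000469943: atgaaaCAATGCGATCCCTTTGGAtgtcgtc
AFB3-type, MDP0000268652: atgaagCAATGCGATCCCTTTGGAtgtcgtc
MDP0000125975 and MDP0000498419 are annotated as F-box/RNI-like superfamily proteins whose Arabidopsis counterpart is TIR1. MDP0000203334 and MDP0000469943 are annotated as auxin signaling F-box 2, and MDP0000268652 as auxin signaling F-box 3. All of these are names of auxin receptors.

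Both miR393 sequences had fewer reads in A than in J leaves, in raw counts and per clean read, though not as a share of known miRNA reads. The deposited tables hold 380 entries, whose counts sum to 4272351 in A and 6275651 in J. The mdm-miR393a-c sequence had 42 reads in A and 77 in J. The mdm-miR393d-f sequence had 42 reads in A and 75 in J. Their sum came to 84 reads for A and 152 reads for J. These few reads, and not the size of the libraries, set the precision of everything said on the family.

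Scaled to 1000000 clean reads (RPM), the family stood at 5.18 in A (exact 95% Poisson interval 4.13 to 6.41) and 11.2 in J (9.51 to 13.2). The intervals do not overlap. They cover counting error only, as reads amplified by PCR are not independent molecules. The mdm-miR393a-c sequence was at 2.59 RPM in A and 5.68 RPM in J, and mdm-miR393d-f at 2.59 RPM in A and 5.54 RPM in J.

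**Figure D1:**
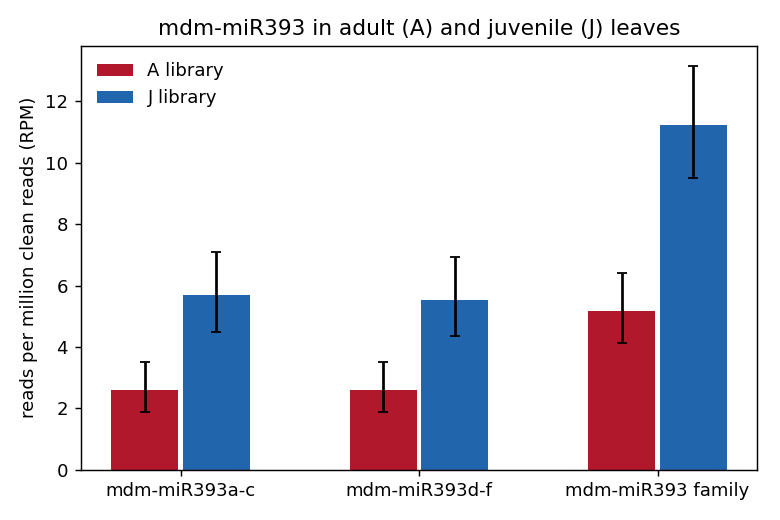
Level of the 2 mdm-miR393 sequences and of their sum in A (red) and J (blue) leaves, in RPM; bars are the single library of each phase and error bars exact 95% Poisson intervals. The family is at 5.18 RPM in A and 11.2 RPM in J, and both sequences are lower in A per clean read, though not per known miRNA read.

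The ratio of A over J was 0.462 for the family, with a 95% Clopper-Pearson interval of 0.349 to 0.606 from the split of its reads. It was 0.456 (0.305 to 0.672) for mdm-miR393a-c and 0.468 (0.313 to 0.691) for mdm-miR393d-f. The 2 sequences thus differed from each other by far less than their counting error. A ratio was called different on 3 conditions. It had to reach 2 or fall to 0.5, its interval had to leave out 1, and 1 of the libraries had to hold 10 reads. Per clean read, the family met this rule as lower in A, as did 39.5% of the 38 known families tested, and 10.5% were called higher in A. Both sequences met it, as did 37.3% of the 59 known sequences tested, and 8.47% were called higher in A. A family lower in A by this rule was therefore common in these libraries, and the family's ratio was the 14th lowest of the 38. The median family ratio was 0.574.

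The size of the difference, and under 1 scaling its direction, depended on how the libraries were put on 1 scale. Across the 56 known sequences read at least 10 times in A and in J alike, the median ratio of A over J was 0.62, a shift of -0.69 on the log2 scale. Relative to that median the family's ratio was 0.744 (0.563 to 0.978), still below 1 but no longer past the limit of 0.5. With TMM in edgeR it was 0.731 (0.553 to 0.960). With the libraries scaled by known miRNA reads, which were 784081 in A and 1538846 in J, the ratio turned to 1.09 (0.821 to 1.43), and its interval held 1. In other words, the family made up 0.0107% of known miRNA reads in A (Clopper-Pearson interval 0.00855% to 0.0133%) and 0.00988% in J (0.00837% to 0.0116%). The 2 shares overlap. The known reads of J were led by mdm-miR156, a family known to be high in juvenile shoots, at 4.12% of known reads in A and 35.3% in J. Scaled by known reads without mdm-miR156 and mdm-miR535 the ratio was 0.571, and it was 0.553 with no scaling. The call of the family as lower in A thus held with clean reads as the scale and with none of the other 5 scalings. The clean read total of J rests on the running text of the study alone, as its table of read statistics repeats the A column for J, and the ratio of 0.553 with no scaling is also the one that equal totals would give.

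**Figure D2:**
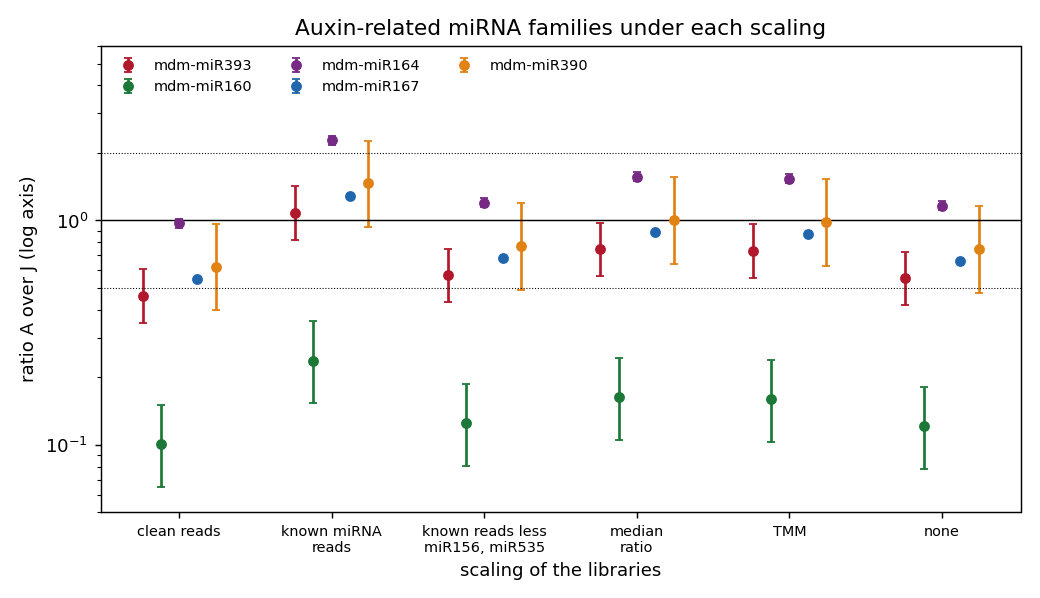
Ratio of A over J (log axis) of mdm-miR393 and the other 4 auxin-related families under 6 scalings of the libraries; points are the ratio of the 2 libraries, error bars 95% Clopper-Pearson intervals, dotted lines the limits of 0.5 and 2. mdm-miR393 lies at 0.462 with clean reads and at 1.09 with known miRNA reads, while mdm-miR160 stays below 0.5 throughout.

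By its reads, miR393 was a minor family of these leaves. It ranked 25th of 43 families in A and also 25th in J. The family just above it in J was mdm-miR3627 (83 reads in A, 191 in J), and the family just below was mdm-miR7123 (100 reads in A, 92 in J). Among single sequences, those nearest to mdm-miR393a-c in A were the ones of mdm-miR159a (44 reads in A, 69 in J) and mdm-miR390a (38 reads in A, 51 in J). The ratio of mdm-miR159a was 0.533 and that of mdm-miR390a was 0.622, so both also lay below 1 with clean reads as the scale. The next nearest in A were mdm-miR172i (59 reads in A, 19 in J), at 2.59, and mdm-miR7126 (35 and 41), at 0.713. Nearest in J, besides mdm-miR159a, were mdm-miR7123a (100 reads in A, 92 in J), mdm-miR396c (62 and 94) and mdm-miR171c (85 and 66). Their ratios were 0.908, 0.551 and 1.08. Sequences at this level thus had ratios on both sides of 1.

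The 5 auxin-related families had unlike ratios. With clean reads as the scale, 2 of the 5 were called lower in A and 0 higher, against 39.5% lower and 10.5% higher of all 38 families. With known miRNA reads, 1 of the 5 was called lower and 1 higher, against 15.8% lower and 31.6% higher of the 38. With 5 families, these counts do not set the list apart from the rest. The called family other than mdm-miR393 was mdm-miR160. It was read 27 times in A, against 223 times in J, and its ratio was 0.101 (0.0652 to 0.151). This interval does not overlap that of mdm-miR393, and mdm-miR160 stayed below 0.5 under each of the 6 scalings. The mdm-miR167 family, which like mdm-miR160 targets ARFs, was read 118832 times in A, against 180793 times in J. Its ratio was 0.549 (0.545 to 0.553), short of the limit and within the interval of mdm-miR393. The mdm-miR390 family, which in other plants triggers small RNAs against ARFs, was read 38 times in A, against 51 times in J, at a ratio of 0.622 (0.398 to 0.966). Its interval also overlapped that of mdm-miR393. The mdm-miR164 family, which targets NAC transcription factors, was read 4069 times in A, against 3501 times in J, at a ratio of 0.971 (0.928 to 1.02). With known reads as the scale, mdm-miR164, mdm-miR167 and mdm-miR390 turned to ratios of 2.28, 1.29 and 1.46.

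**Figure D3:**
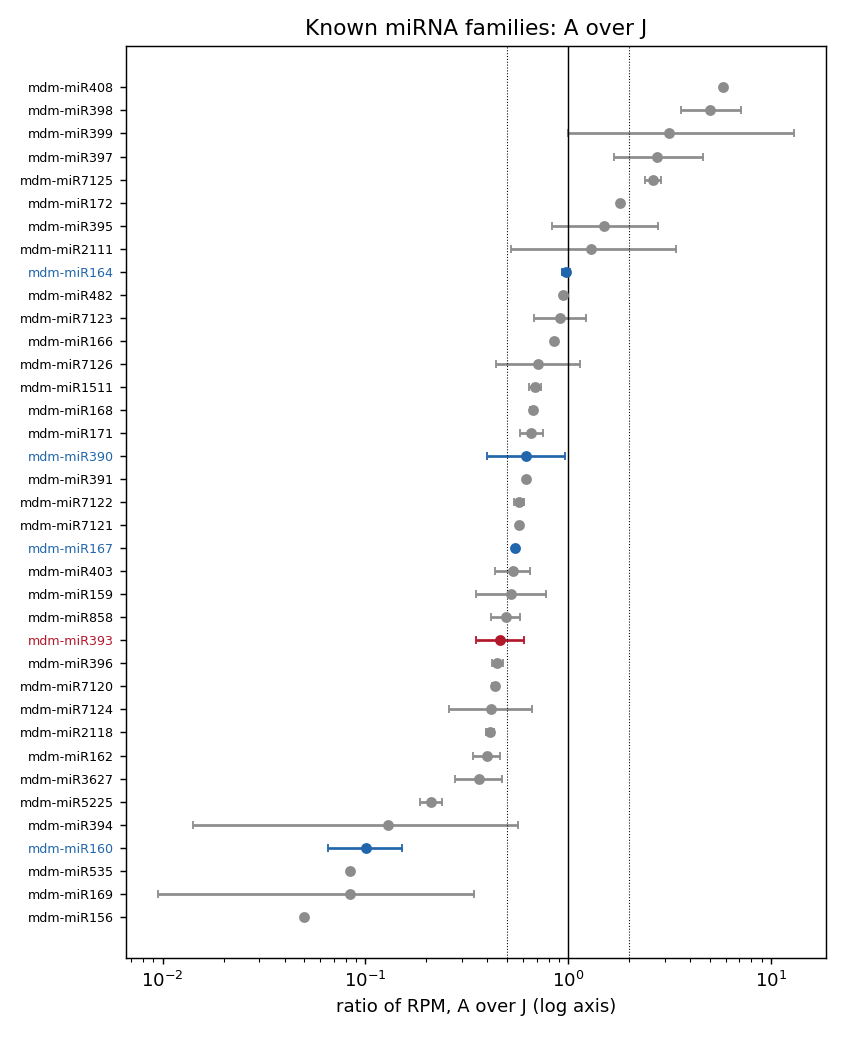
Ratio of A over J (log axis) in RPM of 37 known families with 10 or more reads in a library and reads in both, ordered by ratio; mdm-miR393 is in red, the other auxin-related families in blue, error bars are 95% Clopper-Pearson intervals and dotted lines mark 0.5 and 2. With clean reads as the scale, mdm-miR393, at 0.462, lies among families with much the same ratio and above mdm-miR160 at 0.101.

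The 2 miR393 sequences were close to complementary. RNAduplex paired them with 18 base pairs at -26.3 kcal/mol and left 2 unpaired bases at the 3′ end of each, the geometry known from the duplex of a miRNA and its star strand. In most such duplexes one strand is kept and the other is degraded. Here the reads of mdm-miR393a-c over mdm-miR393d-f were 42 over 42 in A and 77 over 75 in J. Within known families, 16 pairs of sequences had a duplex of -20 kcal/mol or lower, a limit set after the values had been seen, and in 9 of them both sequences had reads in both libraries. The other 8 pairs belonged to 3 families, mdm-miR167, mdm-miR408 and mdm-miR482. In those 8 pairs the more abundant sequence exceeded the other by at least 21.4 times in A and at least 5.04 times in J. For mdm-miR408a and mdm-miR408b the reads were 1787 and 39843 in A and 987 and 4977 in J. Near equality of the 2 sequences was therefore seen for miR393 and for no other of these pairs. The other 8 pairs were chosen by energy and reads alone, and not all have the geometry of a miRNA and its star strand. Overhangs of 2 bases on both sides were found for mdm-miR167a with mdm-miR167h, and for mdm-miR482d with mdm-miR482b and with mdm-miR482c. Some sequences occur in several of the pairs. Known miRNAs were identified by matching reads to apple miRNAs with fewer than 2 mismatches and more than 16 matched bases, so a read need not equal the mature sequence. How a read that matched several names was counted was not found in the sources used here. Of the 53 known sequences with several names, 18 had names with unequal counts, so some deposited counts cannot be those of the mature sequence alone, and what this adds to the equality was not tested. The 3 names of each miR393 sequence had equal counts.

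In the degradome of J leaves, mdm-miR393a, mdm-miR393b and mdm-miR393c were each paired with the same 5 gene models, giving 15 of 2204 records. The names mdm-miR393d, mdm-miR393e and mdm-miR393f had 0 records. Each of the 5 gene models had 1 site, and none of them was paired with any other known or predicted miRNA. Several sites were listed in 18 of 132 pairs of a gene model and a known family. As there was no degradome of A leaves, no comparison of cleavage between phases can be made.

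The TIR1-type gene model MDP0000125975 had the highest count, 796, at base 1516 of its 1848 bases. The second TIR1-type model, MDP0000498419, had a count of 48 at base 1534 of 1764. The AFB2-type models MDP0000203334 and MDP0000469943 both had 568, at base 1870 of 2076 and base 1132 of 1338. The AFB3-type model MDP0000268652 also had 568, at base 1513 of 1713. Positions are those of the gene model, numbered from 1 at its 5′ end. Chromosomal positions were not analysed here, as no genome annotation was at hand. These counts are the authors' values from 1 library, taken to be reads that begin at the site, and their depth is unknown.

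Over all 159 sites of known families the counts ran between 25 and 1661 with a median of 76. The smallest listed count was 25, so weaker sites would not appear. The count of 796 ranked 14th, that of 568 was shared at rank 23, and 48 ranked 114th. Hence the counts of 796 and 568 lay above the median and that of 48, at the second TIR1-type model, lay below it. The count of 568 is repeated at the AFB-type models, which have the same bases from the site, so it is not independent between them. The median over all sites also includes counts repeated at several gene models.

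The equal counts of the AFB-type models cannot be read as independent sites. The 3 models have the same 17 bases from the site onward, and reads that begin at the site cannot be told apart over those bases. Counted once, the family's summed count was 1412, against 2548 over the 5 gene models. The TIR1-type pair differed in the opposite way. Both models carry the same 31 bases, yet their counts of 796 and 48 differed 16.6-fold. Among all records, 120 stretches of 31 bases were shared by several gene models, and 116 of them had the same count at every gene model. Of the other 4, only 1 had a larger ratio, a mdm-miR171 site with 793 at some gene models and 39 at others. What lies beyond the 31 bases is not in the deposited records, and its part in the difference was not tested.

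**Figure D4:**
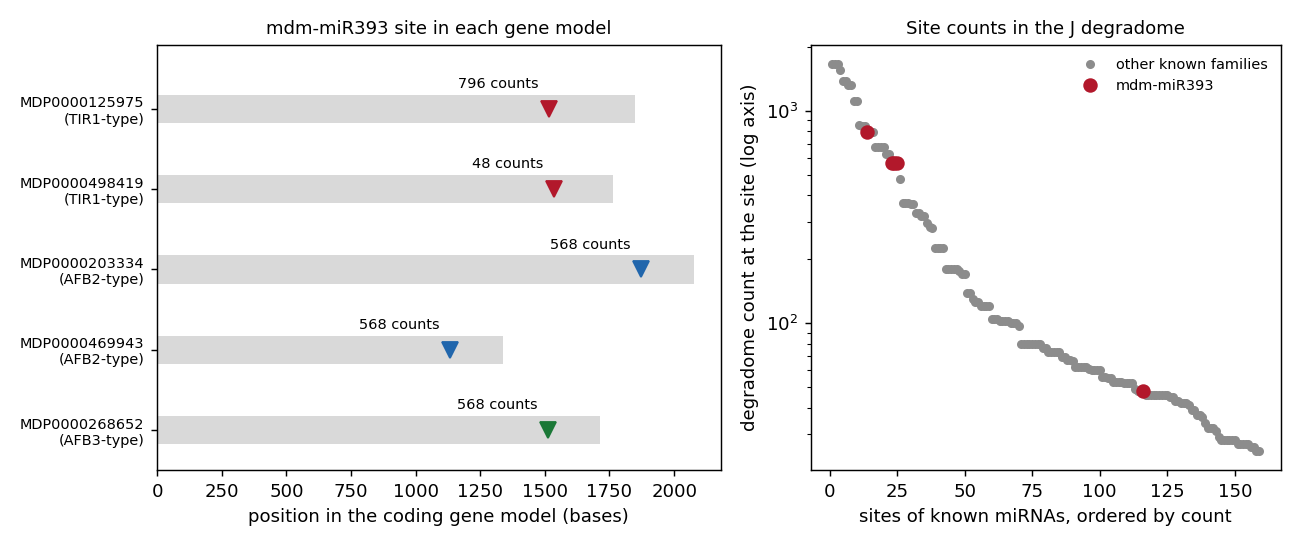
Left, the 5 gene models drawn to scale in bases with the mdm-miR393 site as a triangle (TIR1-type red, AFB2-type blue, AFB3-type green) and its degradome count; right, counts (log axis) of all 159 sites of known miRNAs ordered from high to low, with mdm-miR393 in red. The sites sit near the 3′ end of each coding model. The counts of 796 and of 568, which the AFB-type models share, are well above the median of 76, and that of 48 is below it.

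All 5 sites lay opposite base 10 of mdm-miR393a-c. The same held for 124 of the 154 sites of other known families, 80.5%, so this was the usual position. Less usual was the unbroken run of Watson-Crick pairs. Bases 1 to 18 of the miRNA were in Watson-Crick pairs without a break at all 5 sites, and mismatches and G:U pairs were confined to bases 19 to 22. Among sites of the other families, 22 of 154, or 14.3%, had a Watson-Crick run at least that long, and they belonged to 4 of 24 families. A G:U pair ended the run in this count. Sites with a G:U pair and no mismatch, such as those of mdm-miR172, could therefore be left out of the 22 though paired throughout. The 5 miR393 sites are a single such case in sequence, as they share the same 18 bases. That stretch occurred in no record of another miRNA. As a record requires a miRNA that pairs there, this says little on how specific the stretch is.

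The scores were 3 for the TIR1-type sites and 2.5 for the AFB-type sites, on a scale that adds 1 for a mismatch and 0.5 for a G:U pair. Over all sites of known families the scores ran between 0 and 4 with a median of 2.5. Both types had mismatches at base 19 of the miRNA and at 1 further base, 21, and a G:U pair at base 22. With positions counted from the first base of the stretch, the TIR1-type sequence differed from the AFB2-type sequence by T1A, G2T, G5A and T29G. Of these only G5A faces the miRNA, at its base 20, where the TIR1-type sites have a G:U pair and the AFB-type sites a Watson-Crick pair. The AFB2-type sequence differed from the AFB3-type sequence by A6G alone, which faces base 19 and is a mismatch in both. Thus 26 of the 31 bases were the same in all 5 gene models.

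The sites were alike in their place in the gene. They lay at 82% to 90.1% of the length of the gene model, whereas the median of the sites of other families was 58.1%. Between 200 and 332 bases of the model followed the site. The lengths of all 271 gene models with a record were multiples of 3, which marks them as coding lengths, so all 5 sites were in coding sequence as modelled. In each the site was the first base of a codon, when codons are counted from the start of the model. Among the other 154 sites, 74 were at the first, 45 at the second and 35 at the third base of a codon. As the 5 gene models share the same 18 bases at the site, their like codon position and like place are not 5 independent observations.

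The family's highest site count was compared with its own level. Of the 25 families with a site, mdm-miR393 ranked 6th by its highest site count, behind mdm-miR160, mdm-miR858, mdm-miR167, mdm-miR172 and mdm-miR164. It was also 6th by its highest count per RPM in the J small RNA library, at 70.9. That level sums both sequences, while only mdm-miR393a-c, at 5.68 RPM in J, was paired with the sites. On mdm-miR393a-c alone the value would be higher, so the ranks per RPM are those of the family sum. Families ranked above mdm-miR393 per RPM included mdm-miR828 with 1 read in J, mdm-miR399 with 4, and mdm-miR169 and mdm-miR319 with 20 each. Listed site counts ran only between 25 and 1661, while the families' J reads ran between 1 and 543020. Families with few reads therefore tend to rank high per RPM. Among the other auxin-related families, mdm-miR160, mdm-miR167 and mdm-miR164 had higher highest counts and mdm-miR390 a lower one, while per RPM only mdm-miR160, at 100.9, stood above mdm-miR393. For mdm-miR160, 5 of 6 gene models were annotated as ARFs, with 1661 at both ARF17 models and 43 to 105 at the 3 ARF16 models. For mdm-miR167, all 6 gene models were ARFs, namely ARF6, ARF8 and ARF19, with counts between 624 and 1375. For mdm-miR164, both gene models were annotated as NAC domain containing protein 1, with 845 each. The only mdm-miR390 gene model had counts between 31 and 56 at 4 sites. In J leaves, then, sites were listed at the receptors for miR393 and at the response factors for miR160 and miR167.

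**Figure D5:**
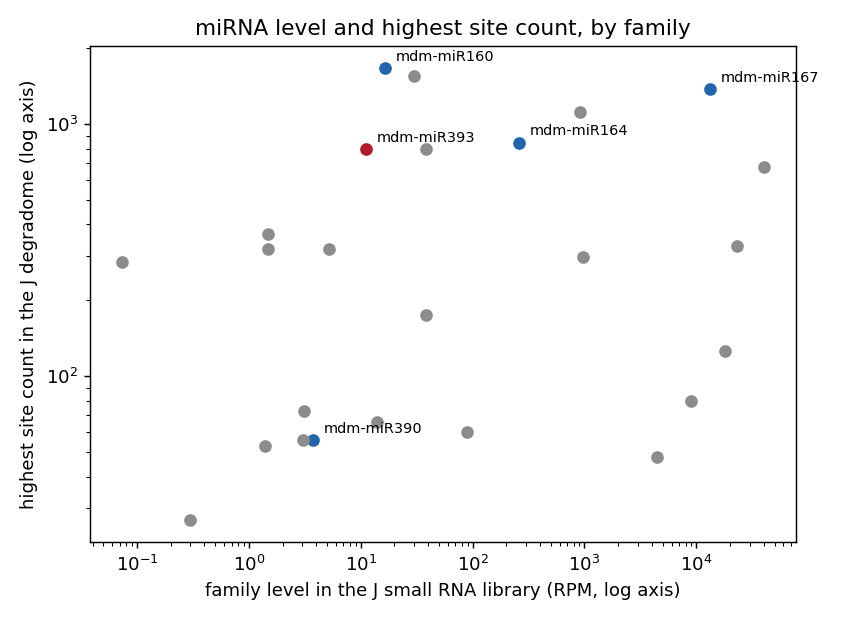
Highest degradome site count of each of the 25 families with a site (log axis) against the level of the family in the J small RNA library in RPM (log axis); points are families, mdm-miR393 in red and other auxin-related families in blue. mdm-miR393, at 11.2 RPM with a count of 796, and mdm-miR160, at 16.5 RPM with 1661, have high site counts at low levels.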

How the data were processed

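For the small RNA libraries, the authors removed low-quality reads and adapters, kept inserts of 18 to 30 nt and deposited raw read counts for each miRNA sequence. Names came from the study's supplementary lists and matched all 380 entries. Names with the same sequence were merged, keeping the highest of their counts, and families were summed over sequences. RPM used the clean reads stated for each library in the study's text, since its table gives the same column for A and J. For the J degradome, the authors aligned the fragments with the genome of domesticated apple and paired sites with miRNAs in PairFinder, and both the deposited count at each site and the deposited score are theirs. The other values, with the pairing of miRNA bases, were read from the deposited alignments. The site was put at base 15 because the 3 records with a site at position 15 of their gene model all start with ATG. Gene annotations were those of the study's target list. Intervals were computed in SciPy 1.17.1 (Python 3.11.15, numpy 2.4.6), duplexes in ViennaRNA 2.7.2, TMM in edgeR 4.0.16 (R 4.3.3), and figures in matplotlib 3.10.9. Only the intervals and calls of the ratios were tested on simulated data. These were drawn as Poisson counts, so the test covers counting error only. Alternatives changed the scaling, the read and ratio limits, the way members are summed and the limits on sites. Members, lists and rules were chosen with earlier results of these data known. All 6 names and 5 gene models are reported, with the other 4 auxin-related families and the families and sequences nearest in level.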

Additional observations from a re-analysis of the deposited data

How the results depend on the processing

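Scaled by known miRNA reads, the ratio of A over J turned to 1.09 for the family, 1.07 for mdm-miR393a-c and 1.10 for mdm-miR393d-f, none of them called. With the median ratio set to 1, these ratios were 0.744, 0.735 and 0.754, and with TMM 0.731, 0.722 and 0.741. Under the other scalings, with either sequence alone and with all 6 names summed, they stayed within the interval of the main value. Of known families, 4 were called higher and 15 lower in A, against 12 and 6 with known reads as the scale, 6 and 9 without mdm-miR156 and mdm-miR535, 7 and 7 with the median ratio or TMM, and 6 and 11 with no scaling. The called families numbered 9 with the limit on the ratio raised to 4, against 19. Auxin-related families called numbered 1 in place of 2 without mdm-miR156 and mdm-miR535 in the scale, with the median ratio, with TMM, with no scaling and with a ratio of 4, and 4 with a ratio of 1.5. The gene models with a site numbered 3 in place of 5 with a score of at most 2.5. They also numbered 3 when models with the same bases from the site and the same count were taken once. The summed count was then 1412, with the TIR1-type models, whose counts differ, still counted apart. The counts of the small RNA libraries, 42 to 77 reads a sequence, limit the precision. No paired analysis was possible because each group has 1 library.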
